A study of Homo sapiens with 6 samples.

Results

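The 54 genes described here act when cells pass from G2 into mitosis and through it, and were taken by a list of gene symbols, a rule without a threshold on the measured values. Their levels were followed in VCaP cells, an established human prostate cancer line with a TMPRSS2-ERG fusion, in which the arginine methyltransferase PRMT5 was knocked down. All 54 symbols were found, on 106 probe sets annotated to 1 symbol, of which 98 passed the filter on dim probe sets. At least 1 probe set passed for each of the 54 genes, so the set made up 54 of the 12413 genes tested. Of these genes, 28 were read by 1 passing probe set and 26 by several, and each gene is given by its brightest unless a probe set is named. The 3 groups of 2 arrays were PRMT5 shRNA 2, PRMT5 shRNA 1 and NTC shRNA, the control hairpin. Every culture, NTC included, grew in DMEM with non-essential amino acids and 20% FCS. All were exposed to doxycycline (100 ng/ml, 3 days), and no uninduced cells enter the contrasts. The sources used here do not give the vector, the hairpin sequences or whether a line came from 1 clone. Replicates may or may not stem from separate cultures, which the labels leave unsaid, and each p-value thus reflects how far these arrays differ, a spread that may be technical.

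A cell enters mitosis when CDK1, bound to B-type cyclins, is freed of inhibitory phosphate by CDC25 phosphatases. The chromosomes are then condensed and attached to the spindle through kinetochores, and the spindle checkpoint holds back the anaphase-promoting complex until all are attached, after which separase cuts cohesin and the cell divides. Transcription of most of these genes peaks in G2 and M under FOXM1, MYBL2 (B-MYB) and the MuvB complex, which binds CHR elements in their promoters, often beside CCAAT boxes bound by NF-Y. In VCaP, as in other lines, their total RNA in a culture therefore depends on how many cells are in G2 and M as well as on the level in each cell.

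The targeted gene was lower in all 4 knockdown arrays. PRMT5 had an intensity of 291 and 321 with shRNA 2, 136 and 134 with shRNA 1, and 810 and 881 with NTC, which left 36.2% of the NTC mean with shRNA 2 and 15.9% with shRNA 1. Its averaged log2 difference was -1.97 ± 0.07 (SE of limma's fit, adjusted p = 6.52e-09). Array medians lay between 14.8 and 16.4, and replicate arrays correlated at 0.996 to 0.997 against 0.976 to 0.991 between groups. Of the luminal markers looked up, 6 of 6 were kept (KLK3, HOXB13, KRT8, KRT18, ERG and EPCAM), with summed intensities of 9044 and 8376 with shRNA 2, 8131 and 8653 with shRNA 1, and 7098 and 7127 with NTC. Several of these markers moved with the hairpins. KLK3 was at 218% of the NTC mean with shRNA 2 and 223% with shRNA 1, and KRT8 at 162% and 145%. KRT18 was at 117% and 126%, HOXB13 at 93.8% and 71.8%, ERG at 98.8% and 75.7%, and EPCAM at 97.6% and 99.6%. The part of these markers in the results below was not tested. Of 10 markers of other cell types, only COL1A1 was kept, and their sum was 56.9 to 83.1 in the 6 arrays.

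With both hairpins averaged, 16 of the 54 genes fell against NTC and 0 rose (limma, Benjamini-Hochberg adjusted p under 0.05, here written as called). The background is high, since 32.4% of all 12413 genes were called in this contrast, 17% lower and 15.4% higher, and the 29.6% of members called lower should be read against the 17%. The changes were small: the members' log2 differences ran from -0.41 to 0.15, none reached 2-fold, and their median was -0.07 against -0.01 over all genes tested. Differences lay below 0 for 37 of the 54 members, or 68.5%, and for 52.9% of all genes. In bulk RNA, fewer cells in G2 and M and less RNA of these genes per cell cannot be told apart. The 4 knockdown arrays all lay below both NTC arrays for 20 of the 54 members, against 2551 of all 12413 genes (20.6%). They all lay above both for 3 of the 54, CDK1, PTTG1 and HMMR, against 2320 of all 12413 genes (18.7%). In the other 31 members the knockdown and NTC arrays overlapped. With the mean over each gene's probe sets, the split of 16 lower and 0 higher became 18 lower and 1 higher. The count of 16 depended on single arrays, and so did the number called over all genes. Rises were also called when the second shRNA 2 array was left out. The members' median difference was -0.06 without the first NTC array and -0.10 without the second NTC array. It was -0.09 without the second shRNA 1 array and -0.08 without the second shRNA 2 array. Over all genes the median was -0.02, -0.01, -0.01 and -0.01 in these 4 fits. CDC25B, FOXM1, ESPL1, CENPF and KIF14 were called lower whichever array was left out. The other 11 calls were lost when the first NTC array was left out, and again when the second was.

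**Figure D1:**
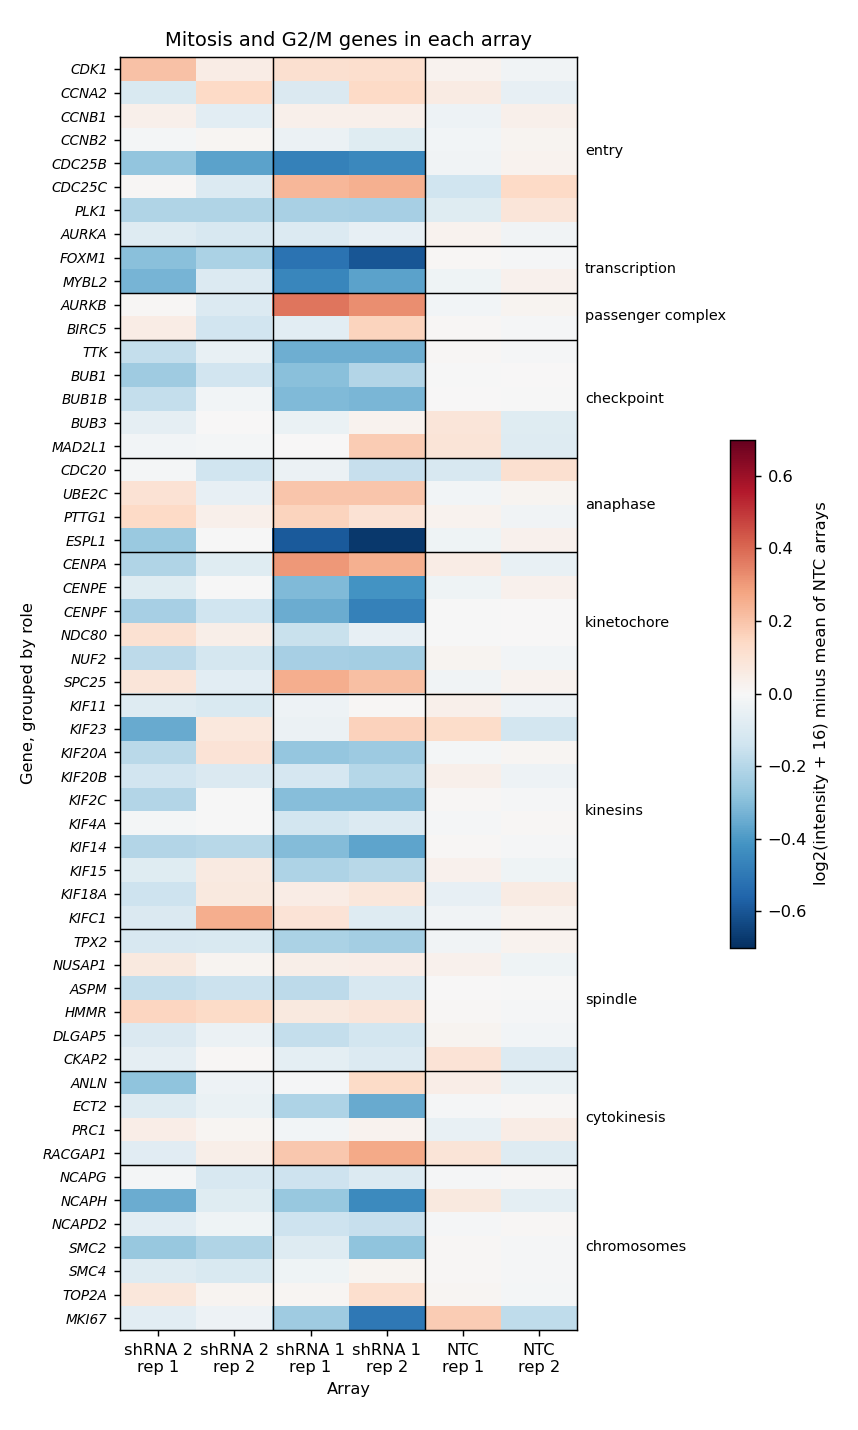
Log2(intensity + 16) of each of the 54 genes in each array minus the mean of the 2 NTC arrays, with genes in rows grouped by role and arrays in columns. Blue marks lower and red higher values. FOXM1, CDC25B and ESPL1 are among the bluest rows, and AURKB and CENPA are reddest in the shRNA 1 arrays.

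**Figure D2:**
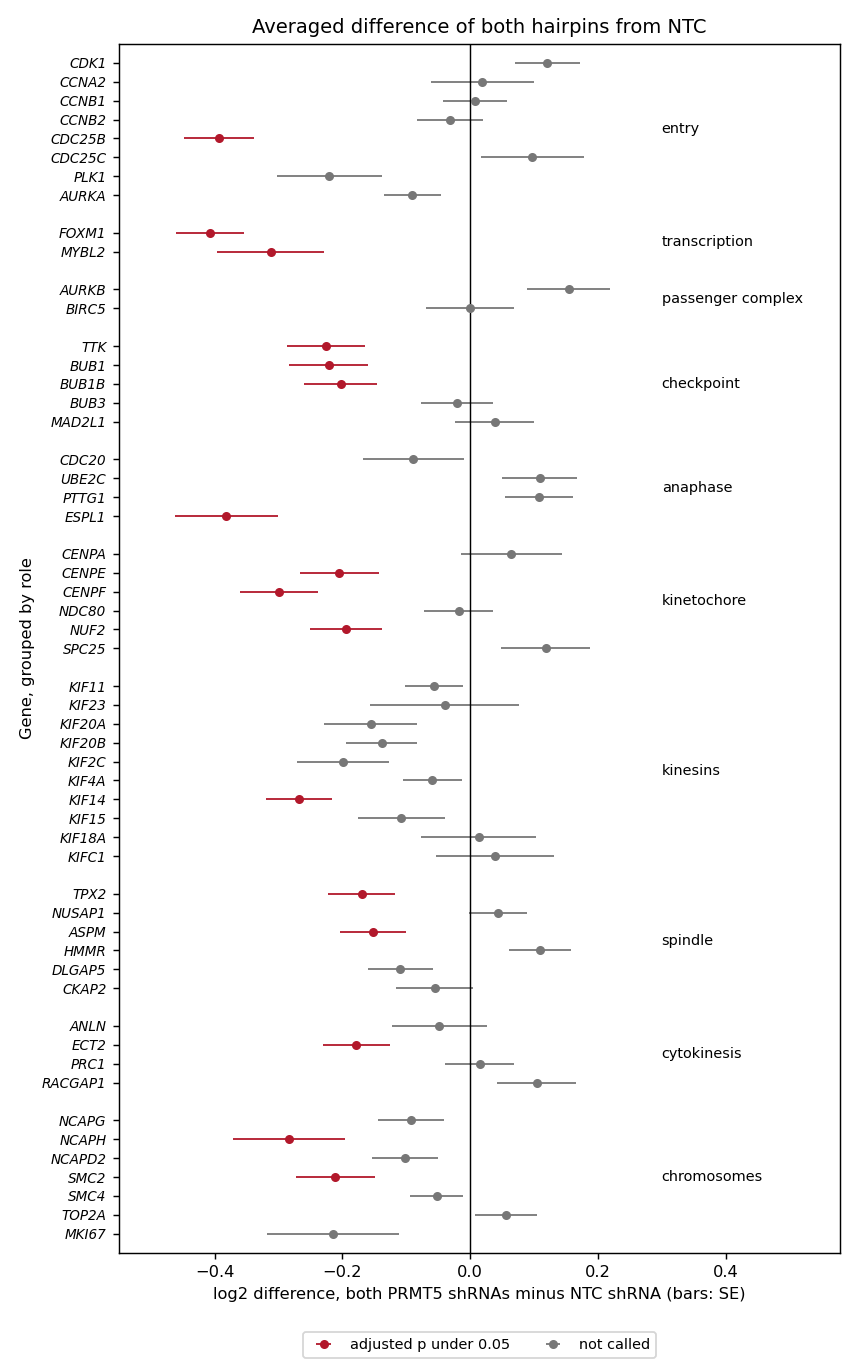
Averaged log2 difference of both PRMT5 shRNAs minus NTC for each gene, grouped by role. Points are limma estimates, bars are the SE, and red marks the 16 genes called, all of them below 0, with FOXM1 lowest at -0.41 and AURKB highest at 0.15, not called.

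Fewer members were called with shRNA 2 than with shRNA 1, as was so over all genes. With shRNA 2, 4 members fell (7.41%) and 0 rose. Of all genes, 21.5% were called with it, 8.42% lower and 13.1% higher. The members' median difference was -0.06 against 0.01 over all genes. With shRNA 1, 17 members fell (31.5%) and 5 rose (9.26%), so 40.7% were called. Of all genes, 39.3% were called with it, 23.2% lower and 16.2% higher, and the median was -0.10 against -0.04. Both sets of differences use the same 2 NTC arrays, so they are not independent of each other. CDC25B, FOXM1 and KIF14 were called with both hairpins (14.7% of all genes were), 19 members with shRNA 1 and not shRNA 2 (24.6% of all genes), and SMC2 with shRNA 2 and not shRNA 1 (6.75% of all genes). Setting the array medians equal changed the shRNA 1 split to 24 lower and 1 higher, AURKB being the 1 that was still called higher, and left 2 calls with shRNA 2. Leaving out the first shRNA 2 array, or either NTC array, left 1 call with shRNA 2. With shRNA 1 the count was 13 without the first NTC array, 14 without the second NTC array and 12 without the second shRNA 1 array, and 11 of the 22 calls were made whichever array was left out (CDC25B, FOXM1, MYBL2, AURKB, TTK, BUB1B, ESPL1, CENPE, CENPF, KIF14 and ECT2). Between the 2 replicate arrays, the members' median absolute log2 difference was 0.097 in shRNA 2, 0.048 in shRNA 1 and 0.047 in NTC. Over all genes tested it was 0.102, 0.080 and 0.077 in the same order.

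A call with 1 hairpin alone does not show that the hairpins differ, so shRNA 2 was also tested against shRNA 1 directly. This contrast called 11 members (20.4%), 7 higher and 4 lower with shRNA 2. Of all genes, 25.7% were called, 18.3% higher and 7.38% lower. FOXM1, TTK, BUB1B, ESPL1, CENPE, CENPF and ECT2 were higher with shRNA 2 than with shRNA 1, and CDC25C, AURKB, CENPA and RACGAP1 were lower. The median difference between the hairpins was 0.05 over the members and 0.06 over all genes. With equal array medians the split was 13 higher and 2 lower. The count was 5 and 3 without the first and the second shRNA 1 array and 6 without the second shRNA 2 array, and AURKB and ESPL1 were called in every fit that left out an array. Alongside this contrast, the ratio of the ACTB probe sets at the transcript's 3′ end to those at its 5′ end was 5.72 and 5.0 with shRNA 2, 3.49 and 3.88 with shRNA 1, and 4.58 and 4.88 with NTC, so it separated the hairpins. The GAPDH ratio was 1.21 to 1.33 in all arrays. The part of these ratios, and of the lower remaining PRMT5 with shRNA 1, in the difference between hairpins was not tested.

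**Figure D3:**
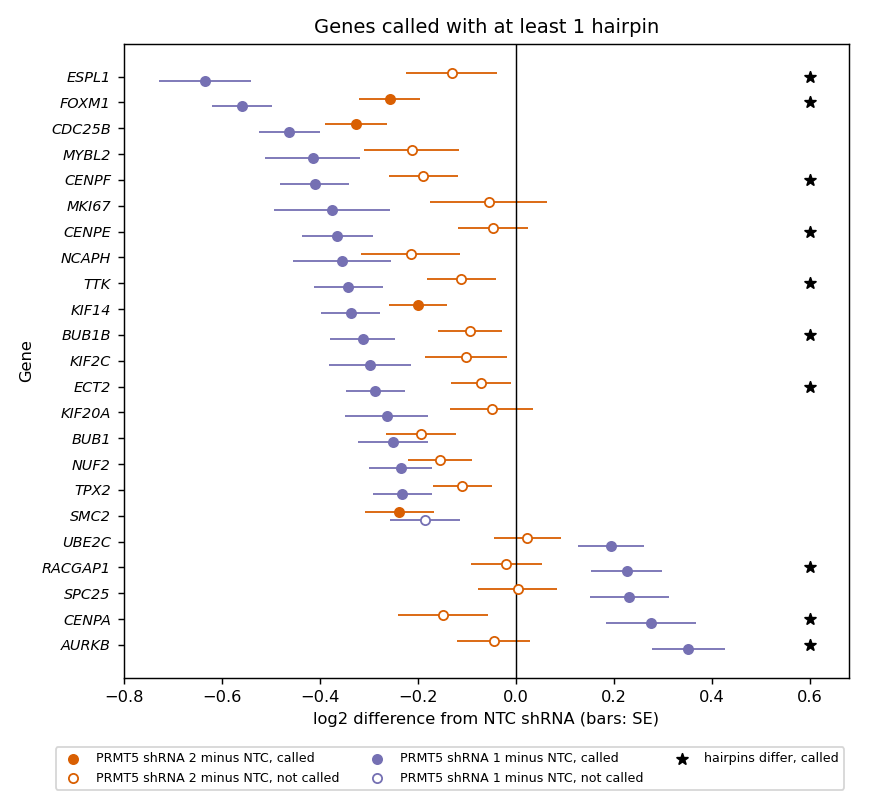
Log2 difference from NTC with each hairpin for the 23 genes called with at least 1 of them. Points are limma estimates, bars are the SE, filled points are called, and a star marks a called difference between the hairpins. Except for SMC2, the shRNA 1 point of each gene lies farther from 0 than its shRNA 2 point, and the 5 genes at the bottom were called higher with shRNA 1 and not called with shRNA 2.

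To show what the promoters share, the RefSeq table of GRCh38.p14 was searched in windows from 250 bases before to 50 bases after each start for a CHR core (TTTGAA, or TTCAAA on the other strand) and a CCAAT box (CCAAT, or ATTGG on the other strand). It held 58 promoters of 46 members. The other 8 members are AURKA, FOXM1, BIRC5, TTK, BUB3, UBE2C, TPX2 and RACGAP1. A CHR core was found in 63.8% of them, against 15.2% of the 35116 promoters in the table, a CCAAT box in 67.2% against 34.6%, and both in 48.3% against 5.9%. Counted per gene, the CHR share was 73.9% against 18.2% of all genes in the table. Among the members called lower in the averaged contrast, 8 of 13 with a promoter held a CHR core (61.5%), and 26 of the 33 not called did (78.8%). The letters were thus common over the whole set, called and uncalled members alike. A match is a description of the letters and not evidence of binding. The 250 bases before the start of 4 genes are printed because these genes cover the patterns described below. ESPL1 fell with shRNA 1, CENPA rose with shRNA 1, ECT2 gave opposite readings on different probe sets, and CDK1 was called in no contrast on its brightest probe set. Capitals mark the CHR core and the CCAAT boxes, and each sequence runs 5′ to 3′ on the plus strand.
ESPL1, chr12:53268049-53268298: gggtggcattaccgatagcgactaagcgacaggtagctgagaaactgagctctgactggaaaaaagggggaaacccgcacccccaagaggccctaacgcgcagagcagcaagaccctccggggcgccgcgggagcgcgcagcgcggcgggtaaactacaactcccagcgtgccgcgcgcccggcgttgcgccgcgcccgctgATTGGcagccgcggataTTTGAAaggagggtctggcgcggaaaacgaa
ECT2, chr3:172750476-172750725: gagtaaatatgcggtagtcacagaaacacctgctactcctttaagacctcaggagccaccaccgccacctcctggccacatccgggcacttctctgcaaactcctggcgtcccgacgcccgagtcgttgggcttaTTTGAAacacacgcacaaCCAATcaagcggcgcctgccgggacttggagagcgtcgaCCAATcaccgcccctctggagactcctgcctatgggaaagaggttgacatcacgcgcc
CENPA, chr2:26785806-26786055: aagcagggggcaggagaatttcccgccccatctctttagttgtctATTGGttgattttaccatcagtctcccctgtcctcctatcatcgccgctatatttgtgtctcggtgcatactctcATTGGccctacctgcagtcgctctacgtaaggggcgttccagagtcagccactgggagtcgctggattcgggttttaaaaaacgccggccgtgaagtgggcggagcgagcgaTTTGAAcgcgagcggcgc
CDK1, chr10:60778081-60778330: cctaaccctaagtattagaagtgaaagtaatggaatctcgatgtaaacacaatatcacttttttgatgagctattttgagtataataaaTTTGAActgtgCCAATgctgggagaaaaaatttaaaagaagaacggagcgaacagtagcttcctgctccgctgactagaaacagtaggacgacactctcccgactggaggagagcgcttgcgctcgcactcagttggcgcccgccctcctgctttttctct
The first base of the CHR core lay 31 bases before the start in ESPL1, 115 in ECT2, 18 in CENPA and 161 in CDK1. The CCAAT boxes lay 48 bases before the start in ESPL1, 97 and 58 in ECT2, 205 and 130 in CENPA, and 150 in CDK1. For ECT2 and CDK1, the table lists 2 promoters each and 1 is shown. It is the first listed that held both a CHR core and a CCAAT box in these 250 bases. Both stood in 36.2% of the members' promoters in that window, against 4.69% of all promoters.

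Among the 8 genes of mitotic entry, CDC25B was the 1 that fell in the averaged contrast. CDC25B, a phosphatase that activates cyclin-CDK complexes in G2, had an intensity of 779 and 726 with shRNA 2, 678 and 688 with shRNA 1, and 932 and 962 with NTC. All knockdown arrays lay well below the NTC arrays, and the lowest were those of shRNA 1. The averaged log2 difference was -0.39 ± 0.05 (SE, adjusted p = 0.000291), and CDC25B fell with each hairpin, by 0.33 on the log2 scale with shRNA 2 (adjusted p = 0.00368) and by 0.46 with shRNA 1 (adjusted p = 0.000247). It was the 1 member called with shRNA 2 in every fit that left out an array. CDC25C, the related phosphatase that acts on cyclin B-CDK1, did not follow it, with 345 and 320 in shRNA 2, 406 and 412 in shRNA 1, and 311 and 380 in NTC. Its NTC arrays spanned both shRNA 2 arrays, and the shRNA 1 arrays were the highest. On this probe set it was called only between the hairpins, at -0.29 ± 0.09 (limma adjusted p = 0.0435). That call was kept in 6 of 11 other settings and was lost in several fits that left out an array. CDC25C rose with shRNA 1 on its dimmer 216914_at and 217010_s_at, by 0.38 and 0.39 (limma over probe sets, adjusted p = 0.0291 and 0.0102). CDK1, the kinase that drives entry, had 2594 and 2327 in shRNA 2, 2430 and 2435 in shRNA 1, and 2282 and 2213 in NTC. All 4 knockdown arrays were above both NTC arrays, but the difference of 0.12 ± 0.05 was not called (adjusted p = 0.0942). The cyclins CCNA2, CCNB1 and CCNB2 had averaged differences of 0.02, 0.01 and -0.03, and the kinases PLK1 and AURKA of -0.22 and -0.09, none of them called. PLK1 had 104.5 and 104.6 in shRNA 2, 103.5 and 102.9 in shRNA 1, and 115.8 and 132.0 in NTC, so all 4 knockdown arrays were lower, while the NTC arrays differed more from each other than the knockdown arrays did (adjusted p = 0.0624).

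Both transcription factors of the set fell. FOXM1, a forkhead factor that activates G2 and M genes, had an intensity of 828 and 868 with shRNA 2, 706 and 664 with shRNA 1, and 1023 and 1010 with NTC. The 3 groups did not overlap, and shRNA 2 lay between shRNA 1 and NTC. Its averaged difference of -0.41 ± 0.05 was the lowest of the 54 members (limma adjusted p = 0.000209). FOXM1 fell by 0.26 with shRNA 2 (adjusted p = 0.0128) and by 0.56 with shRNA 1 (adjusted p = 5.88e-05), and the hairpins differed by 0.30 ± 0.06 (adjusted p = 0.0066). The probe set used for FOXM1 is of a type that can also bind related transcripts (_x_at). MYBL2, which works with MuvB, had 159 and 189 with shRNA 2, 144 and 154 with shRNA 1, and 199 and 208 with NTC. The knockdown arrays were all below NTC, and the shRNA 2 arrays were the more spread. MYBL2 fell by 0.31 in the averaged contrast (adjusted p = 0.016) and by 0.41 with shRNA 1 (adjusted p = 0.00664), and its difference of -0.21 ± 0.10 with shRNA 2 was not called (adjusted p = 0.149). The averaged call of MYBL2 was lost without the first NTC array and without the second (adjusted p up to 0.121).

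**Figure D4:**
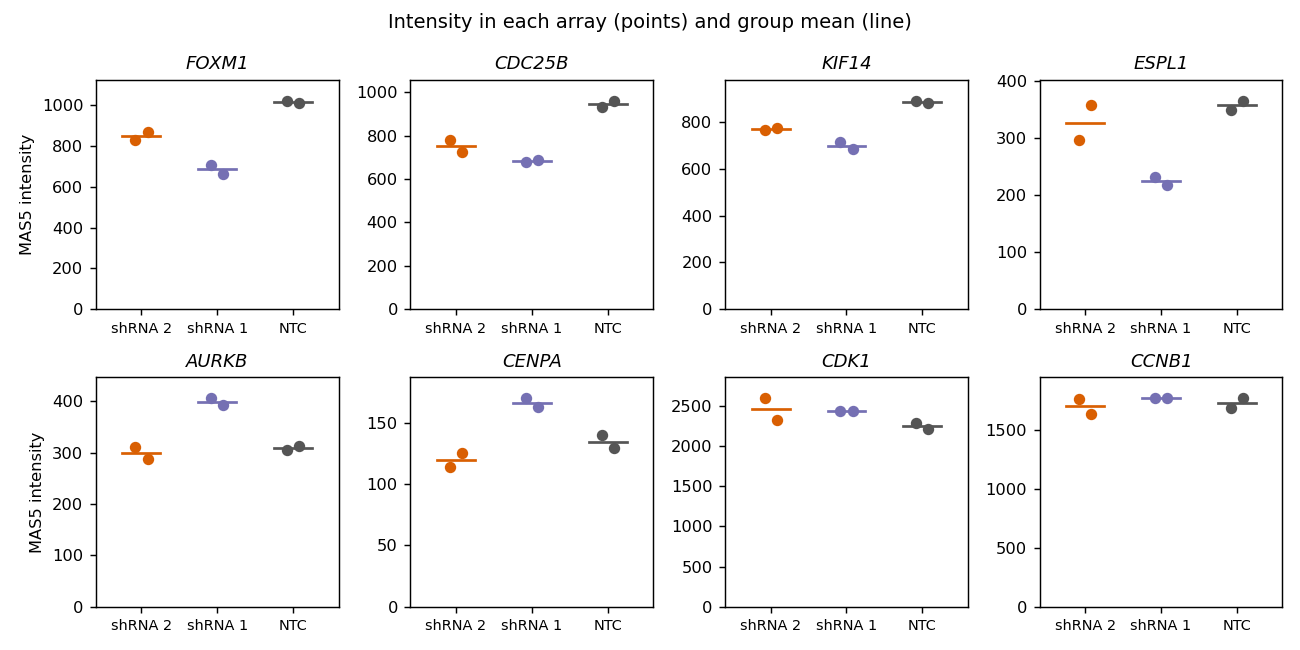
MAS5 intensity in each array (points, 2 a group) and the group mean (line) for 8 genes, on linear axes that start at 0. FOXM1, CDC25B and KIF14 are lower with both hairpins, ESPL1 is low and AURKB and CENPA are high with shRNA 1, and CCNB1 overlaps between groups.

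The chromosomal passenger complex corrects wrong attachments at centromeres, and of its 2 members in the set, neither was called in the averaged contrast. AURKB, its kinase, had an intensity of 311 and 288 with shRNA 2, 406 and 392 with shRNA 1, and 305 and 313 with NTC. The shRNA 1 arrays stood above all others, and the shRNA 2 and NTC arrays were close. AURKB rose by 0.35 ± 0.07 on the log2 scale with shRNA 1 (adjusted p = 0.00378), with a value of -0.04 ± 0.07 with shRNA 2 (adjusted p = 0.724), and the hairpins differed by -0.40 ± 0.07 (adjusted p = 0.0044). BIRC5 (survivin), which brings the kinase to centromeres, had 2637 and 2318 with shRNA 2, 2416 and 2842 with shRNA 1, and 2564 and 2529 with NTC. Its groups overlapped, and no contrast was called on this probe set.

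Of the 5 spindle checkpoint genes, TTK, BUB1 and BUB1B fell in the averaged contrast, and MAD2L1 and BUB3 were not called on their brightest probe sets, though both fell on dimmer ones. TTK (MPS1), the kinase that starts the checkpoint signal, had an intensity of 424 and 460 with shRNA 2, 374 and 374 with shRNA 1, and 481 and 475 with NTC. All knockdown arrays lay below NTC, the shRNA 1 arrays most. TTK fell by 0.23 in the averaged contrast (adjusted p = 0.016) and by 0.34 with shRNA 1 (adjusted p = 0.00324), and the hairpins differed by 0.23 ± 0.07 (adjusted p = 0.0343). BUB1B (BUBR1), which blocks the anaphase-promoting complex, showed a like order with 792 and 881 in shRNA 2, 719 and 713 in shRNA 1, and 893 and 892 in NTC. One shRNA 2 array was close to NTC and the other was not. It fell by 0.20 in the averaged contrast (adjusted p = 0.0201) and by 0.31 with shRNA 1 (adjusted p = 0.00381), with a difference of 0.22 ± 0.07 between the hairpins (adjusted p = 0.0334). BUB1, a kinase of the kinetochore, had 443 and 481 with shRNA 2, 429 and 457 with shRNA 1, and 530 and 531 with NTC. Here the hairpins overlapped each other and both lay below NTC. BUB1 fell by 0.22 in the averaged contrast (adjusted p = 0.0189) and by 0.25 with shRNA 1 (adjusted p = 0.0172), with -0.19 ± 0.07 with shRNA 2 (adjusted p = 0.0786). MAD2L1 (MAD2), which holds CDC20, had 2305 and 2315 with shRNA 2, 2342 and 2648 with shRNA 1, and 2484 and 2196 with NTC, and its groups overlapped. BUB3 had an averaged difference of -0.02 on its brightest probe set. The averaged calls of TTK, BUB1 and BUB1B were lost without the first NTC array and without the second, and that of BUB1 also without the first shRNA 1 array (adjusted p up to 0.111, 0.108 and 0.116).

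Anaphase onset is set by the anaphase-promoting complex, whose targets securin and cyclin B are degraded so that separase can act. ESPL1, separase itself, had an intensity of 296 and 357 with shRNA 2, 232 and 218 with shRNA 1, and 350 and 366 with NTC. One shRNA 2 array lay within the NTC range and the other below it, and both shRNA 1 arrays were far lower. ESPL1 fell by 0.63 on the log2 scale with shRNA 1, the largest difference from NTC with either hairpin among the members' brightest probe sets (adjusted p = 0.000407), against -0.13 ± 0.09 with shRNA 2 (adjusted p = 0.361). The hairpins differed by 0.50 ± 0.09 (adjusted p = 0.00406), and the averaged difference was -0.38 ± 0.08 (adjusted p = 0.00445). A further probe set for ESPL1 gave -0.58 with shRNA 1, -0.02 with shRNA 2 and 0.56 between the hairpins. UBE2C, the ubiquitin-conjugating enzyme of the complex, moved the other way with shRNA 1. It had 801 and 716 with shRNA 2, 855 and 854 with shRNA 1, and 734 and 756 with NTC, so the shRNA 1 arrays were highest and the shRNA 2 arrays lay on either side of NTC. UBE2C rose by 0.19 ± 0.07 with shRNA 1 (adjusted p = 0.0414). PTTG1 (securin), the inhibitor of separase, had 1094 and 1016 with shRNA 2, 1108 and 1066 with shRNA 1, and 1011 and 975 with NTC. Its knockdown arrays were all above NTC, but its averaged difference of 0.11 ± 0.05 was not called (adjusted p = 0.147). PTTG1 has near-identical copies elsewhere in the genome, and its probe set is of the _x_at type. CDC20, the activator of the complex, had an averaged difference of -0.09 with overlapping groups.

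At the kinetochore and centromere, 3 of 6 members fell in the averaged contrast. CENPF, a large protein of the outer kinetochore, had an intensity of 517 and 552 with shRNA 2, 476 and 436 with shRNA 1, and 610 and 612 with NTC. The 3 groups did not overlap, with shRNA 1 lowest. CENPF fell by 0.30 in the averaged contrast (adjusted p = 0.00375) and by 0.41 with shRNA 1 (adjusted p = 0.00114), while the value with shRNA 2 was -0.19 ± 0.07 (adjusted p = 0.0832). The hairpins differed by 0.22 ± 0.07 (limma adjusted p = 0.0407), a call kept in 4 of 10 other settings. On its other kept probe set, 209172_s_at, CENPF had -0.18 with each hairpin and -0.002 ± 0.09 between them. No contrast was called there. CENPE, a kinesin that moves chromosomes to the spindle equator, had 468 and 496 with shRNA 2, 399 and 369 with shRNA 1, and 487 and 509 with NTC. The shRNA 2 arrays overlapped NTC and the shRNA 1 arrays did not. CENPE fell by 0.36 with shRNA 1 (adjusted p = 0.00268) and by 0.20 in the averaged contrast (adjusted p = 0.0283), and the hairpins differed by 0.32 ± 0.07 (adjusted p = 0.0104). NUF2, of the NDC80 complex that binds microtubules, had 513 and 536 with shRNA 2, 497 and 494 with shRNA 1, and 594 and 577 with NTC. Every knockdown array was below NTC, and NUF2 fell by 0.19 in the averaged contrast (adjusted p = 0.0219) and by 0.23 with shRNA 1 (adjusted p = 0.0149). The averaged calls of CENPE and NUF2 were lost without the first NTC array, without the second and without the second shRNA 1 array, and that of CENPE also without the first shRNA 2 array (adjusted p up to 0.196 and 0.168).

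The partners of NUF2 in the same complex did not follow it. NDC80 had an intensity of 890 and 851 with shRNA 2, 741 and 793 with shRNA 1, and 826 and 829 with NTC, with shRNA 2 above and shRNA 1 below NTC, and was called in no contrast. SPC25 had 289 and 257 with shRNA 2, 328 and 317 with shRNA 1, and 267 and 277 with NTC. Its shRNA 1 arrays were the highest, and SPC25 rose by 0.23 ± 0.08 with shRNA 1 (adjusted p = 0.0412). CENPA, the histone H3 variant that marks centromeres, had 114 and 126 with shRNA 2, 170 and 163 with shRNA 1, and 140 and 129 with NTC. The 3 groups did not overlap, with shRNA 1 highest and shRNA 2 lowest. CENPA rose by 0.28 with shRNA 1 (adjusted p = 0.0338), had -0.15 ± 0.09 with shRNA 2 (adjusted p = 0.288), and differed between the hairpins by -0.42 ± 0.09 (adjusted p = 0.00829). Its probe set is of the _x_at type. The rises of SPC25, CENPA, UBE2C and RACGAP1 with shRNA 1 were called neither with equal array medians nor without the filter on dim probe sets. Each was also lost in several fits that left out an array.

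Of 10 mitotic kinesins, the motors that build the spindle and move chromosomes, KIF14 was the 1 that fell in the averaged contrast. KIF14, a kinesin of cytokinesis, had an intensity of 767 and 774 with shRNA 2, 715 and 684 with shRNA 1, and 892 and 882 with NTC. The groups did not overlap and the replicates were close. KIF14 fell by 0.27 in the averaged contrast (adjusted p = 0.00256), by 0.20 with shRNA 2 (adjusted p = 0.0355) and by 0.34 with shRNA 1 (adjusted p = 0.00134). Its call with shRNA 2 was lost whichever array was left out, while the averaged call was kept. KIF20A (MKLP2), a kinesin of the central spindle, had 771 and 943 with shRNA 2, 728 and 737 with shRNA 1, and 873 and 892 with NTC. The shRNA 2 arrays lay on either side of NTC, and KIF20A fell with shRNA 1 by 0.26 ± 0.08 (adjusted p = 0.0288). KIF2C (MCAK), which takes apart microtubule ends, had 288 and 334 with shRNA 2, 269 and 269 with shRNA 1, and 337 and 332 with NTC. One shRNA 2 array lay within the NTC range and the shRNA 1 arrays were lowest. KIF2C fell by 0.30 with shRNA 1 (adjusted p = 0.0162), and its averaged difference of -0.20 ± 0.07 was not called (adjusted p = 0.0554). KIF11 (Eg5), the motor that separates the spindle poles, had 1892 and 1868 with shRNA 2, 1965 and 2025 with shRNA 1, and 2063 and 1968 with NTC, and was called in no contrast. The other 6 kinesins, KIF23, KIF20B, KIF4A, KIF15, KIF18A and KIFC1, had averaged differences of -0.14 to 0.04, none called. On the log2 scale KIF23 differed most between replicates of all members, by 0.43 in shRNA 2 (227 and 310).

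Among 6 genes of spindle assembly, TPX2 and ASPM fell in the averaged contrast. TPX2, which activates AURKA on the spindle, had an intensity of 732 and 733 with shRNA 2, 675 and 668 with shRNA 1, and 776 and 806 with NTC. The groups did not overlap, and TPX2 fell by 0.17 in the averaged contrast (adjusted p = 0.0284) and by 0.23 with shRNA 1 (adjusted p = 0.011). ASPM, a protein of the spindle poles, had 783 and 794 with shRNA 2, 776 and 815 with shRNA 1, and 885 and 878 with NTC. The hairpins overlapped each other below NTC, and the averaged difference of -0.15 ± 0.05 was called (adjusted p = 0.043) with neither hairpin called alone. Its call was lost in 5 of the 6 fits that left out an array (adjusted p up to 0.211), and under 6 other settings. That of TPX2 was lost without each NTC array and each shRNA 1 array (adjusted p up to 0.214). NUSAP1, which bundles microtubules, had 1954 and 1885 with shRNA 2, 1913 and 1926 with shRNA 1, and 1904 and 1821 with NTC, a difference of 0.04 that was not called. HMMR, a spindle protein and hyaluronan receptor, had 1047 and 1032 with shRNA 2, 987 and 1000 with shRNA 1, and 946 and 936 with NTC. All its knockdown arrays were above NTC, but 0.11 ± 0.05 was not called (adjusted p = 0.109). DLGAP5 and CKAP2 had averaged differences of -0.11 and -0.06.

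The 4 genes of cytokinesis were split. ECT2, the exchange factor that activates RhoA at the division plane, had an intensity of 1372 and 1414 with shRNA 2, 1255 and 1142 with shRNA 1, and 1457 and 1469 with NTC. The groups did not overlap on this probe set, and ECT2 fell by 0.18 in the averaged contrast (adjusted p = 0.0245) and by 0.29 with shRNA 1 (adjusted p = 0.00387), with 0.22 ± 0.06 between the hairpins (adjusted p = 0.0253). Its averaged call was lost without each NTC array and without the second shRNA 1 array (adjusted p up to 0.147), and of its other probe sets, 234992_x_at also fell (-0.23 ± 0.07, adjusted p = 0.0267 over probe sets) while 237241_at was not called (0.076 ± 0.07). RACGAP1, which binds and activates ECT2 at the central spindle, had 1422 and 1549 with shRNA 2, 1713 and 1811 with shRNA 1, and 1604 and 1409 with NTC. The shRNA 1 arrays were the highest, and the shRNA 2 arrays lay within the NTC range. RACGAP1 rose by 0.23 ± 0.07 with shRNA 1 (adjusted p = 0.0278) and differed by -0.25 ± 0.07 between the hairpins (adjusted p = 0.0298). ANLN and PRC1 had averaged differences of -0.05 and 0.01 and were not called on their brightest probe sets.

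Of 7 genes of chromosome structure, NCAPH and SMC2, both condensin subunits, fell in the averaged contrast. NCAPH had an intensity of 309 and 374 with shRNA 2, 328 and 288 with shRNA 1, and 417 and 378 with NTC. All knockdown arrays were below NTC, though 1 shRNA 2 array came within a few units of it, and NCAPH fell by 0.28 in the averaged contrast (adjusted p = 0.0292) and by 0.35 with shRNA 1 (adjusted p = 0.0173). SMC2 had 799 and 830 with shRNA 2, 904 and 789 with shRNA 1, and 970 and 956 with NTC. The hairpins overlapped below NTC, and SMC2 fell by 0.21 in the averaged contrast (adjusted p = 0.0233) and by 0.24 with shRNA 2 (adjusted p = 0.0361), with -0.19 ± 0.07 with shRNA 1 (adjusted p = 0.0597). The other condensin subunits NCAPG and NCAPD2 had averaged differences of -0.09 and -0.10, below NTC in all 4 knockdown arrays and not called. SMC4, the partner of SMC2, had 2672 and 2640 with shRNA 2, 2783 and 2879 with shRNA 1, and 2857 and 2831 with NTC, and was called in no contrast. TOP2A, the topoisomerase that untangles sister chromatids, had an averaged difference of 0.06. MKI67 (Ki-67), the proliferation marker that coats mitotic chromosomes, had 287 and 296 with shRNA 2, 253 and 210 with shRNA 1, and 345 and 266 with NTC. On the log2 scale its NTC arrays differed by more than any other member's did, and MKI67 fell with shRNA 1 by 0.37 ± 0.12 (adjusted p = 0.0278), with an averaged difference of -0.21 ± 0.10 (adjusted p = 0.134). The averaged calls of NCAPH and SMC2 were lost without each NTC array and without the second shRNA 1 array, and that of NCAPH also without the first shRNA 2 array (adjusted p up to 0.225 and 0.139).

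The probe sets of 1 gene did not always move together. In the fit of all 28644 kept probe sets, 26 of the 98 member probe sets fell and 2 rose in the averaged contrast, against 14.7% and 13.5% of all kept probe sets. With shRNA 2, 14 fell and 0 rose, against 8.63% and 9.38%, and with shRNA 1, 25 fell and 16 rose, against 19% and 17.5%. Between the hairpins, 8 were higher and 18 lower with shRNA 2, against 13.1% and 12.7%. This balance was opposite to the 7 higher and 4 lower found with the brightest probe set of each gene. The averaged count was 8 without the first NTC array, 9 without the second NTC array and 17 without the second shRNA 1 array. Of the 26 genes with several probe sets, all probe sets had 1 sign for 15 genes in the averaged contrast, 20 with shRNA 2 and 15 with shRNA 1. With shRNA 1, BIRC5, BUB1, BUB3 and ECT2 each had 1 probe set called higher and another called lower.

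ECT2 showed the widest such split. On 237241_at it had 231 and 237 with shRNA 2, 430 and 452 with shRNA 1, and 321 and 289 with NTC. On this probe set shRNA 1 was highest and shRNA 2 lowest, the reverse of the brighter 219787_s_at described above. The differences were -0.36 ± 0.08 with shRNA 2, 0.51 ± 0.08 with shRNA 1 and -0.87 ± 0.08 between the hairpins (limma over probe sets, adjusted p = 0.000133). BIRC5, uncalled on its brightest probe set, fell on 202094_at, with 565 and 483 in shRNA 2, 567 and 507 in shRNA 1, and 667 and 684 in NTC. All knockdown arrays were below NTC there, and the averaged difference was -0.34 ± 0.07 (adjusted p = 0.00544). On 210334_x_at, BIRC5 fell by 0.28 with shRNA 2 and rose by 0.41 with shRNA 1.

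BUB1 rose by 0.47 with shRNA 1 on 216275_at, with 52.6 and 56.5 in shRNA 2, 94.2 and 101 in shRNA 1, and 64.4 and 67.5 in NTC. BUB3 gave 0.33 with shRNA 1 on 201456_s_at and -0.29 on 201457_x_at, both called. ASPM rose by 0.39 ± 0.12 with shRNA 1 on 239002_at (limma over probe sets, adjusted p = 0.0271). It differed there by -0.49 ± 0.12 between the hairpins (adjusted p = 0.0139), on a dim probe set at 51.3 to 92.4. On 232238_at ASPM had an averaged difference of -0.18, not called. The 2 probe sets that rose in the averaged contrast were 219978_s_at of NUSAP1 and 217010_s_at of CDC25C. The NUSAP1 probe set had 406 and 375 with shRNA 2, 521 and 558 with shRNA 1, and 309 and 345 with NTC, a rise of 0.47 ± 0.07 (adjusted p = 0.000543), and of 0.70 ± 0.08 with shRNA 1 alone. The groups did not overlap there, unlike on its brighter probe set. The CDC25C probe set rose by 0.31 ± 0.09 (adjusted p = 0.0202). CDK1 was called higher with shRNA 1 on 203214_x_at and 231534_at, by 0.18 and 0.27. Of the genes uncalled above, CCNB1 fell by 0.19 on 228729_at (adjusted p = 0.019), AURKA by 0.18 and 0.22 on its dimmer probe sets (adjusted p = 0.0303 and 0.022), and MAD2L1 by 0.32 on 236312_at (adjusted p = 0.00231). BUB3 fell in the averaged contrast by 0.21 on 201457_x_at (adjusted p = 0.014) and by 0.30 on 229827_at (adjusted p = 0.0295), and KIF2C by 0.26 on 211519_s_at (adjusted p = 0.0159). Between the hairpins, ANLN on 1552619_a_at and CCNA2 on 203418_at were lower with shRNA 2 than with shRNA 1. Their differences were -0.35 ± 0.10 and -0.23 ± 0.07 (limma over probe sets, adjusted p = 0.0245 and 0.0366). Which part of the transcript each probe set reads was not analysed here.

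**Figure D5:**
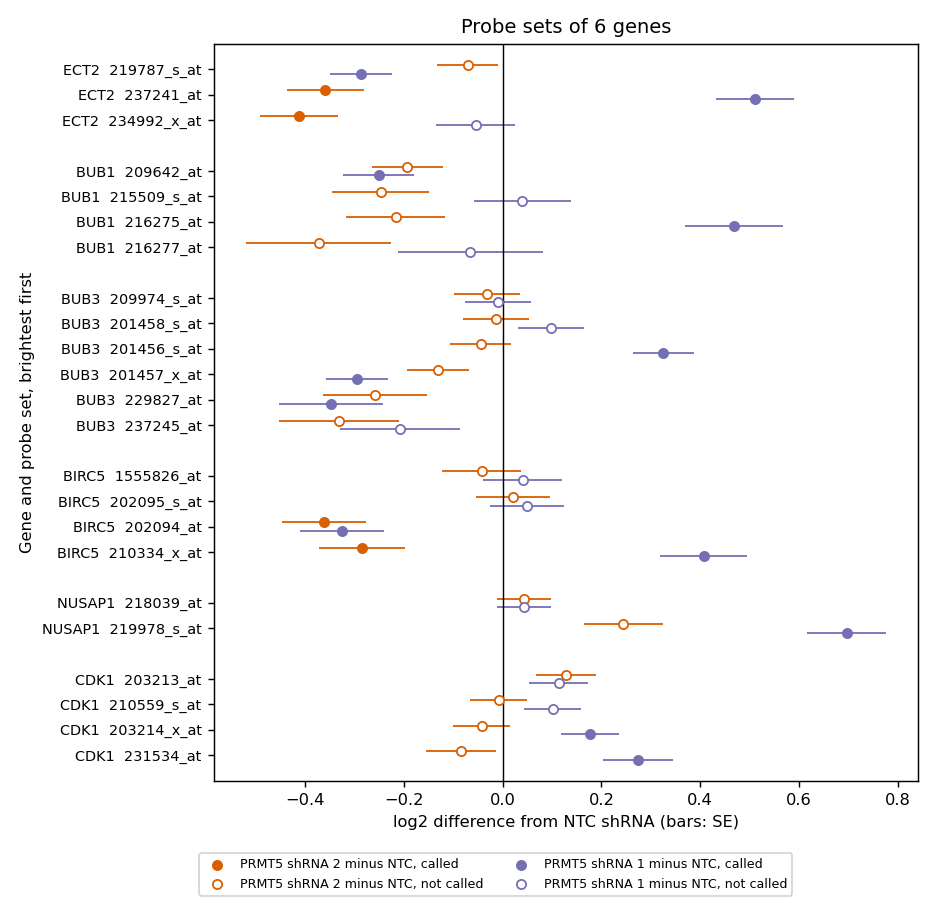
Log2 difference from NTC with each hairpin for every kept probe set of 6 genes, brightest first within a gene. Points are limma estimates, bars are the SE and filled points are called. The second ECT2 probe set and the last BIRC5 probe set lie above 0 with shRNA 1 and below 0 with shRNA 2.

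A list of 103 other mitosis genes was set beside the members, and 99 of its genes were tested. In the averaged contrast 19 of the 99 fell and 4 rose, against 17% and 15.4% of all genes, and their median difference was -0.06. With shRNA 2, 8 fell and 2 rose, against 8.42% and 13.1% of all genes, and with shRNA 1, 27 fell and 11 rose, against 23.2% and 16.2%. Between the hairpins 18 were higher and 15 lower with shRNA 2, against 18.3% and 7.38%. The averaged count of 23 was 10 without the first NTC array, 8 without the second and 14 without the first shRNA 1 array. The 3 lowest called were ARHGEF39 at -0.47 ± 0.07 (adjusted p = 0.000583), CENPC at -0.38 ± 0.08 (adjusted p = 0.00481) and SKA3 at -0.37 ± 0.08 (adjusted p = 0.00756). CENPC, which binds CENPA at the inner kinetochore, had an intensity of 186 and 210 with shRNA 2, 123 and 112 with shRNA 1, and 198 and 208 with NTC. It fell with shRNA 1 by 0.72 ± 0.09, while CENPA, as given above, rose with that hairpin, and its shRNA 2 arrays overlapped NTC. SKA3, a kinetochore protein that tracks microtubules, had 177 and 205 with shRNA 2, 201 and 179 with shRNA 1, and 238 and 261 with NTC, so both hairpins lay below NTC alike. The 3 highest called were MAD1L1 at 0.35, KIF22 at 0.28 and ANAPC11 at 0.25. KIF22, a kinesin that pushes chromosome arms outward, had 580 and 563 with shRNA 2, 517 and 514 with shRNA 1, and 444 and 442 with NTC. Its groups did not overlap, and KIF22 rose with both hairpins, by 0.36 with shRNA 2 and by 0.21 with shRNA 1. MAD1L1, the binding partner of MAD2, was dim, with 16.4 to 31.7 over the 6 arrays. ANAPC11, a catalytic subunit of the anaphase-promoting complex, had 1494 and 1266 with shRNA 2, 1716 and 2125 with shRNA 1, and 1338 and 1379 with NTC, and its shRNA 1 arrays were the highest.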

How the data were processed

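RNA from VCaP cells was measured on 6 Affymetrix arrays of 54675 probe sets. Per the submitters' processing notes the deposited values are MAS5 intensities on a linear scale; the version is not given in the sources used here. Each column had a mean of about 150 after trimming 2% at each end, so no scaling was added. Probe sets were named through the platform annotation, using those with 1 symbol. A probe set was kept if it reached its array's median in at least 2 arrays, and each gene was read on its kept probe set with the highest mean log2 value. Values were fitted as log2(intensity + 16) over 12413 genes by limma (version 3.58.1, R 4.3.3; linear model, contrasts and eBayes with an intensity trend), 1 coefficient a group, on all 6 arrays; tests were two-sided, with Benjamini-Hochberg adjustment over all genes. Probe sets were fitted likewise. The code was tested on simulated data.

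Full values are given for members called in any contrast and for the member of each role with the highest mean intensity. That intensity was used only to pick it. Of the other mitosis genes, the 3 lowest and 3 highest called are named, with values in each array for CENPC, SKA3, KIF22 and ANAPC11. The members, lists and settings were chosen with earlier results of these data known. The number of arrays limits the precision. Alternatives are given in the closing section.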

Additional observations from a re-analysis of the deposited data

Results flagged for a closer look

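In 11 of the 54 members (20.4%) the effect differed between the hairpins by the direct test of shRNA 2 against shRNA 1 (limma adjusted p under 0.05). The share was 25.7% over all genes. Among the brightest probe sets of each gene, ESPL1 had the widest gap, 0.50 higher with shRNA 2 on the log2 scale (adjusted p = 0.00406), followed by CENPE at 0.32, FOXM1 at 0.30, TTK at 0.23, and BUB1B, CENPF and ECT2 at 0.22 each. CENPA was lower with shRNA 2, at -0.42 (adjusted p = 0.00829), as were AURKB at -0.40, CDC25C at -0.29 and RACGAP1 at -0.25. Groups of 2 arrays are too small for a search for single outlying arrays.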

How the results depend on the processing

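The averaged count of 16 members lay between 11 and 19 under other pseudocounts, filters, scalings and probe set rules, without an intensity trend and with a replicate block, and between 5 and 21 when an array was left out. With shRNA 2 the 4 calls became 2 without a filter, 2 with equal array medians, 2 without an intensity trend and 9 with the mean over probe sets, and 1 to 6 with an array left out. With shRNA 1 the 22 calls became 12 to 23 with an array left out. Between the hairpins the 11 calls became 6 without a filter, 5 without a trend and 20 with the mean over probe sets (7 higher and 13 lower), and 3 to 15 with an array left out. Equal array medians gave 24 lower and 1 higher with shRNA 1, and 13 higher and 2 lower between the hairpins, where the median of all genes was 0.11 against 0.06 as reported. The 23 calls among other mitosis genes became 15 without a filter, and 8 to 29 with an array left out. The 28 member probe sets called became 18 without a filter, 17 without a trend, and 8 to 34 with an array left out. More genes were tested without a filter (19775 against 12413). The share of all genes called then fell too, to 17.3% from 32.4% in the averaged contrast. It fell to 11.1% from 21.5% with shRNA 2, to 21.7% from 39.3% with shRNA 1, and to 11.8% from 25.7% between the hairpins. Calls over all genes also changed when an array was left out, so these counts do not describe the members alone. The cause of the other shifts was not tested. The PRMT5 difference stayed between -2.05 and -1.74 in all settings.

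Some genes changed direction with the probe sets used. Without _x_at and _s_at probe sets, CCNB1 gave -0.19 (limma adjusted p = 0.0155) and ECT2 0.076 (adjusted p = 0.422) in the averaged contrast, and ECT2 gave -0.87 (adjusted p = 0.000207) between the hairpins. With the mean over probe sets, MAD2L1 gave -0.14 in the averaged contrast (adjusted p = 0.0274) and ECT2 -0.34 between the hairpins (adjusted p = 0.00328). These follow from which probe sets are read, since those of 1 gene differ as described above.

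The labels do not say whether same-numbered arrays were handled together, and 2 arrays a group cannot decide it. Deviations of same-numbered arrays correlated at -0.004 (shRNA 2 and shRNA 1), -0.177 (shRNA 2 and NTC) and -0.088 (shRNA 1 and NTC). With the number as a replicate block, 14 members were called in the averaged contrast, 3 with shRNA 2, 19 with shRNA 1 and 10 between the hairpins, 19 other mitosis genes and 23 member probe sets, and PRMT5 was at -1.97.

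With 2 arrays a group, a member that was not called is not shown to be unchanged. MAS5 intensities of dim probe sets lie near background, and differences are on the log2(intensity + 16) scale, which understates changes of dim genes.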
